A study of Mus musculus with 2 samples.

Results

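The genes of small non-coding RNAs on the mouse autosomes were examined for H3K4me3 peaks in lung group 2 innate lymphoid cells (ILC2s). Members were the genes that GENCODE vM21 types as miRNA, snRNA, snoRNA, scaRNA, misc_RNA or rRNA and that have no start of a protein-coding transcript within 2000 bp. Of 5682 autosomal genes of these 6 types, 5091 were members, at 5011 separate loci. They comprised 1750 miRNA, 1216 snRNA, 1307 snoRNA, 39 scaRNA, 472 misc_RNA and 307 rRNA genes. A member was counted as having a peak when a peak lay within 1000 bp of the gene. Such peaks numbered 192 of 42126 in offspring of control mothers and 191 of 51610 in offspring of asthmatic mothers.

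H3K4me3 is a histone mark found at active transcript starts. It was profiled by CATCH-seq, a carrier-assisted native ChIP-seq for few cells in which micrococcal nuclease cuts the chromatin, in about 3000 ILC2s a library. Mothers were sensitized with alum alone or with alum and 100 µg ovalbumin (OVA), mated with untreated males, and given PBS or 500 µg OVA intranasally from gestation day 4 to day 17. The ILC2s came from lungs of the offspring at 8 weeks of age. The study used wild-type C57BL/6J mice, and the labels give these offspring no treatment of their own. The offspring of PBS-treated mothers gave 1 library (the control list of peaks) and the offspring of OVA-treated mothers 1 library (the asthmatic list). No value is replicated, and the groups could not be compared by a test. The study describes 1 pregnant dam per group for these data, so each library stands for the litter of 1 mother, and the number of offspring behind a library is not given in the sources used here.

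Both lists were checked against cell markers at coding starts. Of 8 ILC2 markers, 8 had a start peak in the control list and 5 in the asthmatic list, which had none at Gata3, Il7r or Il2ra. Of 12 markers of other lung cells, 1 (Epcam) had a start peak in the control list and 0 in the asthmatic list. In the control list 63.3% of autosomal peaks lay on copied sequence, and in the asthmatic list 75.4% did. Here a summit is copied when the 75 bases around it occur more than once on the assembled chromosomes, and single-copy when they occur once. A read from copied sequence alone cannot be placed on 1 locus with certainty, so the overall shares are given for both kinds of summit. The study reports paired-end reads, and whether a mate outside the window placed such reads was not examined. The authors' fold and −log10 q, read here as in the usual narrowPeak format, set each peak against a local background and are not scaled between lists, so a peak's rank is given as the percentile of its −log10 q within its own list.

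Small RNA genes are transcribed in different ways. Most miRNA hairpins and most snoRNAs are cut out of longer RNA polymerase II transcripts, so the mark at the start of the host transcript can lie far from the hairpin. The U1, U2 and U5 snRNAs and the U3 snoRNA, which serve splicing and ribosomal RNA maturation, have their own polymerase II promoters, with the control elements just upstream of the gene. The U6 snRNA, 7SK, the Y RNAs and 5S ribosomal RNA are made by polymerase III, U6 from upstream elements that include a TATA box and 5S from elements inside the gene. Families such as U1, U6 and 5S have left many copies in the genome, most of them degenerate.

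A U1 and a U2 gene are shown first, from the GRCm38.p6 (mm10) reference, to let their lengths and conserved parts be compared. The U1 gene Rnu1b6 (chr3:96460024-96460189, minus strand) has in capitals the stretch that pairs with the 5′ splice site. The U2 gene Gm24950 (chr11:101641748-101641938, plus strand) has in capitals the stretch that pairs with the branch point.
Rnu1b6: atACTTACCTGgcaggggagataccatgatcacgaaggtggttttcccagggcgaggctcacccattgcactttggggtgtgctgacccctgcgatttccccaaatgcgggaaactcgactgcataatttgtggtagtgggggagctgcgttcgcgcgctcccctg
Gm24950: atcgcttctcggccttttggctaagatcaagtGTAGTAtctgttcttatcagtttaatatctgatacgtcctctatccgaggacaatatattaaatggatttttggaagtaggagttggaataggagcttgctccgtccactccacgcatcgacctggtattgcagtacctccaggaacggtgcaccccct

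Some mature miRNAs of single-copy loci with a peak, chosen among genes that the results return to, are given from the RefSeq miRNA table (GRCm38.p6), which held 723 of the 1749 distinct names of miRNA members and 24 of the 73 names with a peak. Capitals mark the seed, bases 2 to 8, which sets the targets of a miRNA. They lie at chr10:122985698-122985719 (let-7i, minus strand), chr11:87756867-87756887 and chr11:87756903-87756925 (the arms of miR-142a, plus strand), chr11:79712009-79712030 (miR-193a, plus strand), chr12:112130927-112130948 (miR-203, plus strand), chr3:122293615-122293634 (miR-760, minus strand), chr3:88215613-88215635 (miR-9, plus strand) and chr6:51269829-51269850 (miR-148a, minus strand).
mmu-let-7i-5p: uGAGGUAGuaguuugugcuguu
mmu-miR-142a-5p: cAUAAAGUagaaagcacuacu
mmu-miR-142a-3p: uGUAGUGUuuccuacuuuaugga
mmu-miR-193a-3p: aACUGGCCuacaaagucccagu
mmu-miR-203-3p: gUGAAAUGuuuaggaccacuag
mmu-miR-760-3p: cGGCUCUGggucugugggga
mmu-miR-9-5p: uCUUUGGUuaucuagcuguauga
mmu-miR-148a-3p: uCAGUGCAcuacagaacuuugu
Among the miRNA members found in that table, the let-7i seed GAGGUAG was shared by 10 genes, of which 1, Mirlet7i itself, had a peak within 1000 bp. The seed of miR-9 was shared by 3 genes and those of miR-193a, miR-760 and miR-148a by 2 each, with 1 gene of each set having a peak. The seeds of miR-203 and of both miR-142a arms belonged to 1 gene each.

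Most small RNA genes had no peak in either list. In the control list 199 of 5091 members had a peak (3.91%, exact Clopper-Pearson 95% interval 3.39 to 4.48%), and in the asthmatic list 187 did (3.67%, 3.17 to 4.23%). The order of the lists turned when 1 place, an array of 5S rRNA genes described below, was left out, to 3.51% and 3.61%, and turned back to 3.31% and 3.27% when the Snhg14 snoRNA arrays were left out as well. A peak missing from a list cannot tell fewer marked cells from less mark per cell. Both lists had a peak at 126 members, the control list alone at 73 and the asthmatic list alone at 61, while 4831 members had none. Intervals cover counting error only, and neighbouring genes can share a peak. For comparison across gene classes the distance was taken from the 5′ end of each gene. By that measure 24.8% of all 51229 autosomal genes had a peak in the control list and 20.7% in the asthmatic list. Among the 22253 other genes that also lack a coding start within 2000 bp, the shares were 3.17% and 3.11%. The members stood at 3.81% (3.30 to 4.37%) and 3.57% (3.08 to 4.12%) by the same measure, so the share of the other genes lay just under the interval of the members in the control list and inside it in the asthmatic list. The other genes were themselves uneven, from 1.80% of processed pseudogenes to 12.9% of processed transcripts in the control list. Autosomal bases within 1000 bp of any peak made up 3.27% of the genome in the control list and 3.76% in the asthmatic list, which lies inside the interval of the members for the asthmatic list and just under it for the control list.

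Peaks present in 1 list alone were read against the same comparisons. By 5′ end, 1.34% of members (1.04 to 1.69%) had a peak in the control list only and 1.10% (0.832 to 1.43%) in the asthmatic list only. Over all autosomal genes the shares were 4.86% and 0.787%, and over the other genes without a nearby coding start they were 1.08% and 1.02%. The members thus lay near the genes of like position. With copied and single-copy peaks counted together, the excess of control-only peaks seen over all genes was not found at them. For single-copy peaks alone the members had 0.471% in the control list only and 0.157% in the asthmatic list only. The genes of like position had 0.800% and 0.153%.

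With all peaks counted, the gene types differed little except for rRNA. A peak was found at 58 miRNA genes in the control list (3.31%) and 59 in the asthmatic list (3.37%), with 43 in both. For snRNA genes the numbers were 49 (4.03%) and 42 (3.45%), with 26 in both. For snoRNA genes they were 48 (3.67%) and 59 (4.51%), with 37 in both. Each list had 16 misc_RNA genes with a peak (3.39%), 11 of them shared, and the same 2 scaRNA genes (5.13%). The rRNA genes stood apart, with 26 in the control list (8.47%, 5.61 to 12.2%) against 9 in the asthmatic list (2.93%, 1.35 to 5.49%). Of these genes 22 and 5 stand in 1 array, so they are not independent.

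**Figure D1:**
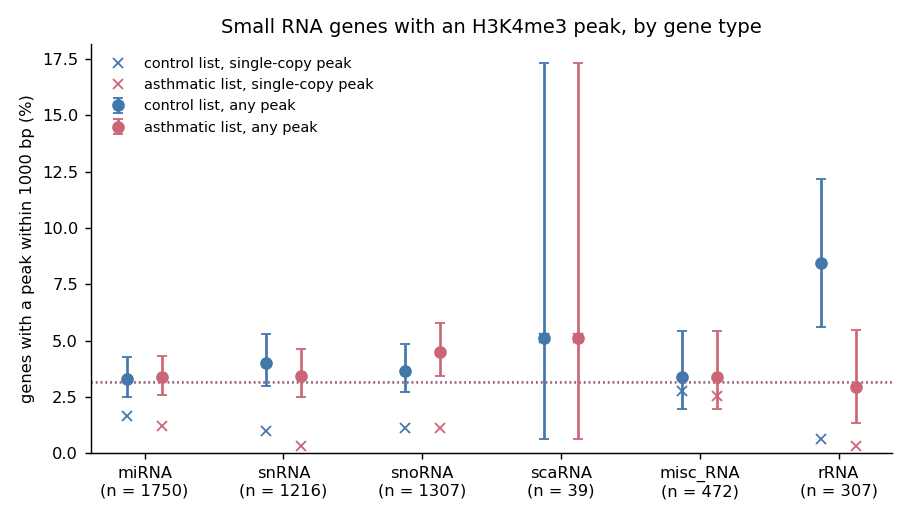
Share of small RNA genes with an H3K4me3 peak within 1000 bp, in percent, by gene type. Circles are all peaks with exact Clopper-Pearson 95% intervals, crosses are single-copy peaks, and the dotted lines mark 3.17% and 3.11%, the shares at other genes without a nearby coding start; the circle of rRNA genes in the control list, 8.47%, is the highest of that list.

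Most of these peaks lay on copied sequence. Of the 192 control peaks 68 were single-copy (35.4%, 28.7 to 42.6%), and of the 191 asthmatic peaks 53 were (27.7%, 21.5 to 34.7%). With single-copy peaks alone, 73 members (1.43%) remained in the control list and 55 (1.08%) in the asthmatic list. By 5′ end these shares were 1.39% and 1.08%, beside 1.72% and 1.07% at the other genes without a nearby coding start. The misc_RNA peaks were mostly single-copy (13 of 16 and 12 of 16), miRNA peaks were mixed (28 of 55 and 20 of 59), and snRNA peaks were mostly copied (11 of 49 and 4 of 42 single-copy). A single-copy peak was found at 2.75% and 2.54% of misc_RNA genes and at 0.987% and 0.329% of snRNA genes.

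Single-copy and copied peaks at small RNA genes differed in sequence. The median CpG content of single-copy peaks was 7.10 per 100 bases in the control list and 7.91 in the asthmatic list, against 1.36 and 1.23 for copied peaks. Repeat-masked bases made up a median of 4.07% and 0% of single-copy peaks, and 100% of copied peaks in both lists. The start of another annotated gene lay within 1000 bp of 35 of 68 and 32 of 53 single-copy peaks, and of 8 of 124 and 7 of 138 copied peaks. Overlap with the other list was found for 43 of 68 single-copy control peaks (63.2%) and for 47 of 53 single-copy asthmatic peaks (88.7%). Over all autosomal single-copy peaks these shares were 67.8% and 89.2%, so the members followed the whole lists. For copied peaks the overlap was 78 of 124 and 81 of 138, beside 74.7% and 52.9% over all autosomal copied peaks.

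The contrast can be read in the 75 bases around a summit. CG dinucleotides are in capitals below, all sequences are given on the plus strand of GRCm38.p6, and the first 7 summits are single-copy while the last 3 are copied. Mirlet7i (chr10:122985507-122985581), Terc (chr3:96414620-96414694), Scarna2 (chr3:108554519-108554593), Snora26 (chr5:74093298-74093372), Rny1 (chr6:47788484-47788558), Mir9-1 (chr3:88215547-88215621) and Mir142 (chr11:87756843-87756917) are from the control list, as is n-R5s113 (chr8:123561105-123561179). The U6 genes Gm29163 (chr9:83939504-83939578) and Gm22307 (chr1:4529472-4529546) are from the asthmatic list.
Mirlet7i: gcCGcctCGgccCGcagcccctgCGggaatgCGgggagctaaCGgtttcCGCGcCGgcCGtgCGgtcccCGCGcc
Terc: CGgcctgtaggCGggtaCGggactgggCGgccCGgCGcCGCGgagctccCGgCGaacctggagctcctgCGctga
Scarna2: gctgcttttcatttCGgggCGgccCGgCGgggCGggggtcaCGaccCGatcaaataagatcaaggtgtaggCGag
Snora26: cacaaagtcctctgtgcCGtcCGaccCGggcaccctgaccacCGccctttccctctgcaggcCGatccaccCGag
Rny1: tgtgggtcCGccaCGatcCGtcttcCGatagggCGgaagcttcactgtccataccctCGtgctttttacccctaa
Mir9-1: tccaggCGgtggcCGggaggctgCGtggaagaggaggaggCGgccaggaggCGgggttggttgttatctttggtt
Mir142: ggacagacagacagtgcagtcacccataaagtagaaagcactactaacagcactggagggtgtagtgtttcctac
Gm29163: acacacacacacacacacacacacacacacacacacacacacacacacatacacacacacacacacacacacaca
Gm22307: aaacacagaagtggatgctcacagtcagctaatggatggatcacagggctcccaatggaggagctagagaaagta
n-R5s113: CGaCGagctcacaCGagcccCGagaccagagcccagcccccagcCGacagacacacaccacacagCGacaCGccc
The Mirlet7i window held 13 CG dinucleotides, Terc 11, Scarna2 8, Snora26 and Rny1 6 each and Mir9-1 5, while Mir142 held 0 and ran through the hairpin itself. The window at Gm29163 is a CA repeat found at 140 places, and that at Gm22307 occurs 7083 times. The n-R5s113 window, in the spacer of the 5S array, held 7 CG dinucleotides and occurs 49 times.

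The difference at rRNA genes came from 1 place, the 5S array on chromosome 8 (chr8:123538786-123623745). It holds 51 annotated 5S genes with a median spacing of 1697.5 bp. In the control list 22 of the 51 genes had a peak (43.1%, 29.3 to 57.8%), and in the asthmatic list 5 had one (9.80%, 3.26 to 21.4%), all 5 of which also had a control peak. The remaining 256 rRNA genes had a peak at 4 in each list. The 23 control peaks had folds from 1.86 to 3.58 and the 7 asthmatic peaks from 1.89 to 3.33, low beside the median fold of all autosomal peaks, 5.28 in both lists.

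Most array peaks lay in the spacer just upstream of the genes, 22 of 23 in the control list and 5 of 7 in the asthmatic list. The exceptions, at Gm23647 in both lists and at n-R5s100 in the asthmatic list, had summits 225 to 256 bp downstream of the 5′ end. The median summit stood at −177 bp from the 5′ end in the control list and at −304 bp in the asthmatic list. The summit window of each array peak occurred 43 to 50 times in the control list and 44 to 49 times in the asthmatic list. A read from any of these windows could belong to many units of the array, so the number of genes with a peak does not count genes that carry the mark. The highest −log10 q of the array lay at its last gene in both lists, Gm23647, at 17.7 in the control list and 11.7 in the asthmatic list. The first gene, n-R5s100, followed with 10.8 and 7.62.

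**Figure D2:**
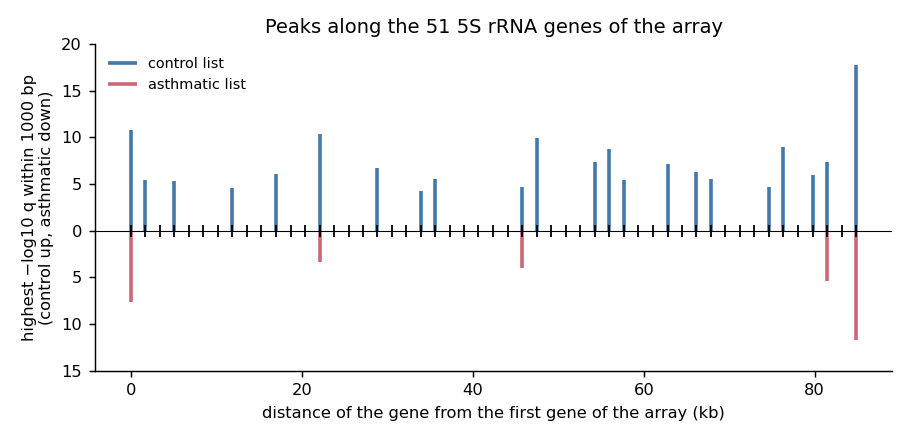
Highest −log10 q of a peak within 1000 bp of each of the 51 5S rRNA genes, against the distance of the gene from the first gene of the array in kb. Control list upward, asthmatic list downward, black ticks are the genes; 22 genes have a bar upward and 5 a bar downward, with the highest in both directions at the last gene.

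Outside the array the rRNA gene CT010467.1 on chromosome 17 had 1 of the higher peaks of its type, with a −log10 q of 13.5 in the control list and 8.94 in the asthmatic list and folds of 2.21 and 2.23. Its windows are single-copy on the assembled chromosomes. Copies outside these chromosomes were not counted, so its reads may still come from more than 1 place. The 5S copy n-R5s194, on chromosome 3, had a control peak with a −log10 q of 12.7 at a window found 483 times.

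Among snRNA genes, the peaks were mostly at near full-length copies. A gene was called near full length when at least 90% of its named reference was covered at 90% identity or more. Of 31 near full-length U1 genes, 8 had a peak in the control list (25.8%, 11.9 to 44.6%) and 2 in the asthmatic list (6.45%, 0.791 to 21.4%). Of the 151 partial or diverged U1 copies, 1 and 2 had one. Of 11 near full-length U2 genes, 6 had a control peak (54.5%, 23.4 to 83.3%) and 1 an asthmatic peak (9.09%, 0.230 to 41.3%), against 1 of 36 diverged copies in each list. The control intervals of near full-length and diverged copies did not overlap for either family, and the asthmatic intervals did. These counts include copied summits. With single-copy peaks alone, 1 near full-length U1 gene remained in each list. For near full-length U2 genes, 4 remained in the control list and 1 in the asthmatic list. The near full-length U1 and U2 genes with an asthmatic peak all had a control peak too, but at Gm22614, a U1 gene, the asthmatic summit lay 769 bp downstream of the 5′ end on a window found 1026 times and the control summit at −186 bp. In addition 1 diverged U1 copy had an asthmatic peak alone. Of 5 near full-length U5 genes, 1 had a control peak and 0 an asthmatic peak. None of the 55 U7-like copies had a peak in either list (0%, up to 6.49%).

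The control peaks at near full-length U1 and U2 genes lay just upstream. All 8 control summits at near full-length U1 genes were upstream, at positions from −186 to −96 bp relative to the 5′ end. All 6 control summits at near full-length U2 genes were upstream too, with a median position of −157.5 bp. Rnu1b6, printed above, had a control peak with a −log10 q of 5.27 and no asthmatic peak within 1000 bp. Gm24830, a U1 gene whose summits are single-copy, had peaks of 8.84 and 5.17. The U2 genes Gm25360, Gm23472, Gm24497 and Gm25939 form a row on chromosome 1 (chr1:72226240-72255198). Their control peaks had −log10 q values of 16.8, 11.5, 3.84 and 10.7, and Gm23472 alone had an asthmatic peak, of 4.71. Gm24950 had a control peak of 6.26 and none in the asthmatic list. Among named genes of these families, Rnu1a1, Rnu1b1, Rnu1b2, Rnu2-10 and Rnu5g had no peak within 1000 bp in either list.

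The U6 genes showed another pattern. Of 299 near full-length U6 genes, 25 had a control peak (8.36%, 5.48 to 12.1%) and 28 an asthmatic peak (9.36%, 6.31 to 13.2%), with 18 in both, against 5 (0.931%, 0.303 to 2.16%) and 8 (1.49%, 0.645 to 2.91%) of 537 diverged copies. Most of these summits were copied, 22 of 25 in the control list and 26 of 28 in the asthmatic list. Of the copied summits 21 of 22 and 23 of 26 lay downstream of the gene. Over all copied summits, upstream ones included, the median position was 694 and 500 bp from the 5′ end. Their median repeat-masked share was 100% in both lists, and the median number of copies of the window was 2090.5 and 1460.5. Rnu6 itself had none within 1000 bp.

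A TATA motif (letters TATA on the gene's strand, 40 to 16 bases before the 5′ end) was searched at near full-length U6 genes. Of the 42 genes with it, 8 had a control peak (19.0%, 8.60 to 34.1%) and 9 an asthmatic peak (21.4%, 10.3 to 36.8%). Of the 257 without it, 17 (6.61%, 3.90 to 10.4%) and 19 (7.39%, 4.51 to 11.3%) had one. The intervals overlapped in both lists. The same letters stood in that window in 9.80% of all 5091 members. The U6 gene with the highest peak was Gm29163, at 30.6 in the control list and 47.9 in the asthmatic list, with the CA repeat shown above at its asthmatic summit. Gm24859, whose summits are single-copy in both lists, had peaks at percentiles 72.5 and 22.2 of their lists.

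**Figure D3:**
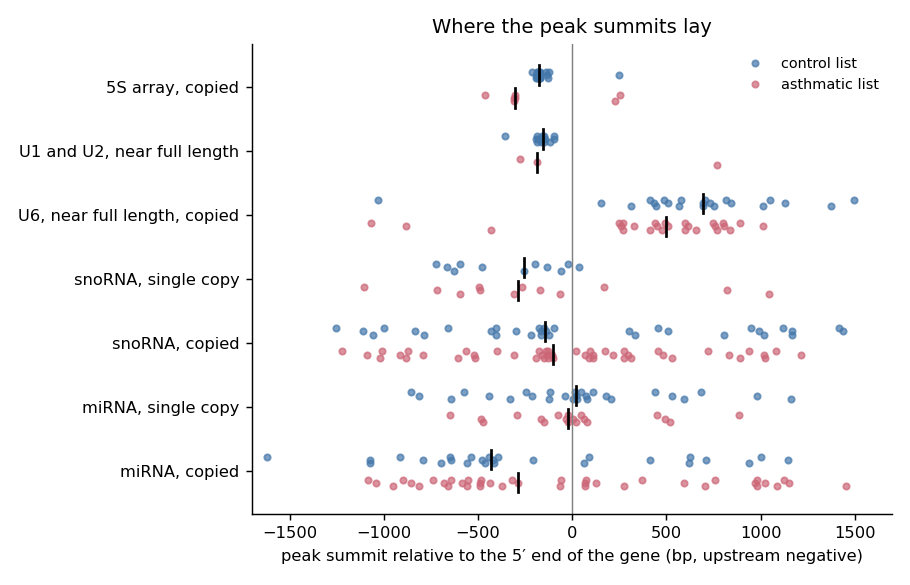
Position of peak summits relative to the 5′ end of the small RNA gene in bp, upstream negative, for groups of genes with summits on single-copy or copied sequence. Each point is a peak, blue for the control list and red for the asthmatic list, and black bars are medians; U1 and U2 summits of the control list stand just upstream, while copied U6 summits stand mostly downstream, with medians of 694 and 500 bp.

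The U3 snoRNA, which guides early cuts of the ribosomal precursor, had peaks at the same genes in both lists. Of 15 annotated near full-length U3 genes, 8 had a peak in both lists, and these 8 are 4 loci annotated in duplicate, Rnu3b1 to Rnu3b4 on chromosome 11. The nearest control peaks had −log10 q values of 16.8 at Rnu3b1, 12.6 at Rnu3b2, 16.7 at Rnu3b3 and 15.3 at Rnu3b4. The nearest asthmatic peaks had 10.6, 7.96, 5.94 and 10.6 in the same order. All of these peaks touched or lay within 36 bp of the gene on its upstream side, and their windows occurred 4 times in the genome. The percentiles within the lists ran from 78.4 to 90.1 in the control list and from 31.6 to 79.7 in the asthmatic list.

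Of the named polymerase III genes, Rny1, which encodes the Y1 RNA bound by the Ro protein, had a single-copy control peak 246 bp upstream with a −log10 q of 11.7 and none in the asthmatic list. Rn7sk, whose RNA holds back the elongation factor P-TEFb, had none in the control list within 1000 bp and an asthmatic peak 304 bp upstream with a −log10 q of 5.19. That peak lay 23 bp from the annotated start of the lincRNA C920006O11Rik. Rny3 had no peak within 1000 bp, and its nearest upstream peaks lay 3380 and 3375 bp away. Rn7s2, a gene of the 7SL RNA of the signal recognition particle, had a control peak of 14.9 at a window found 3 times and none in the asthmatic list. Among the 282 diverged 7SK copies, 2 and 3 had a peak. Terc, the RNA template of telomerase and a polymerase II gene, had single-copy peaks over the gene in both lists, with −log10 q values of 15.7 (percentile 87.8) and 6.00 (percentile 34.1).

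Box H/ACA and box C/D snoRNAs guide pseudouridylation and 2′-O-methylation, and scaRNAs do the same for snRNAs in Cajal bodies. Of the 25 members with a Snora name, 6 had a peak in each list, 5 of them in both. Of the 67 with a Snord name, 7 had a control peak and 4 an asthmatic peak, 3 in both. Over all snoRNA genes the shares were 3.67% and 4.51%. Of the 6 with a Scarna name, Scarna2 had peaks in both lists, of 11.8 and 10.6. Several single-copy peaks lay near the start of a host gene. Snora24 near the start of Snhg8 had 2 peaks in each list, with 17.3 and 7.54 at the gene and 12.6 and 7.59 further upstream. Snora16a and Snora44 near Snhg12 had 18.1 and 6.80, and the scaRNA gene Gm26083 near Snhg20 had 11.4 and 8.55. Snora26 had the highest percentile of the named snoRNA genes in the control list, 98.1, with values of 24.9 and 11.5. Snord104 had 16.5 and 6.66. The control peak of 10.2 that covers Snord49b and reaches Snord49a, and the control peak of 16.1 upstream of Snora17, had no counterpart within 1000 bp in the asthmatic list. Snora9 near Snhg15 had an asthmatic peak of 4.44 and none in the control list.

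Gm25697 was 1 of the 3 genes with single-copy peaks in both lists that ranked higher in the asthmatic list. Its single-copy peak, 340 bp upstream in the control list and 359 bp in the asthmatic list, had a −log10 q of 22.3 (percentile 96.8) in the control list and 33.3 (percentile 99.1) in the asthmatic list. The highest snoRNA peak of both lists, at Gm26021 with 36.5 and 39.1, lay on copied sequence, with 31 and 38 copies of its window.

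Tandem arrays of snoRNA and miRNA genes differed in their peaks. The 3 snoRNA arrays of Snhg14 on chromosome 7, which hold the Snord115- and Snord116-like repeats of the Prader-Willi region, comprised 208 genes. Of these, 17 had a control peak (8.17%, 4.83 to 12.8%) and 24 an asthmatic peak (11.5%, 7.53 to 16.7%), with 12 in both. The middle array (chr7:59673461-59807088, 51 genes) held most of them, 11 in the control list (21.6%, 11.3 to 35.3%) and 17 in the asthmatic list (33.3%, 20.8 to 47.9%). The largest array (137 genes) had 2 in the control list (1.46%, 0.177 to 5.17%) and 4 in the asthmatic list (2.92%, 0.801 to 7.31%). The remaining array of 20 genes had 4 and 3. Windows of the middle array occurred 3 to 31 times in the control list and 4 to 36 times in the asthmatic list. The highest values in the middle array were 20.2 at Gm23313 in the control list and 17.0 at Gm25350 in the asthmatic list. Without the 3 arrays the snoRNA shares were 2.82% in the control list and 3.18% in the asthmatic list. The 65 miRNA genes of the Meg3 and Mirg arrays on chromosome 12, the 23 snoRNA genes of Rian beside them and the 119 genes of the miRNA array on chromosome 2 had a peak at 0 of 207 genes in either list (0%, up to 1.77%).

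The single-copy peaks allow the lists to be set side by side gene by gene. A single-copy peak was found at 81 members in either list, at 47 in both, at 26 in the control list only and at 8 in the asthmatic list only. Of the 26, 24 had no asthmatic peak of any kind within 1000 bp, and of the 8, 7 had no control peak. By 5′ end, 0.471% of members had a single-copy peak in the control list only and 0.157% in the asthmatic list only, beside 4.71% and 0.369% of all autosomal genes and 0.800% and 0.153% of the other genes without a nearby coding start. Among the 47, the single-copy peak of highest −log10 q of each gene was taken. Its −log10 q was higher in the control list at 45, its percentile was higher there at 44 and the peak was wider there at 47. Several of the 47 share 1 peak, as do those near Ighm, Neat1 and Snhg12, so they are not independent. The median percentile was 86.0 in the control list and 54.1 in the asthmatic list, and the median width was 534 and 351 bp. The same held for the 9300 other autosomal genes with a single-copy peak at the 5′ end in both lists, where the percentile was higher in the control list for 87.0%, the peak was wider for 92.6%, the median percentiles were 85.6 and 60.2 and the median widths 579 and 345 bp. The shift was therefore shared with other single-copy peaks at gene starts and was not particular to small RNA genes.

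**Figure D4:**
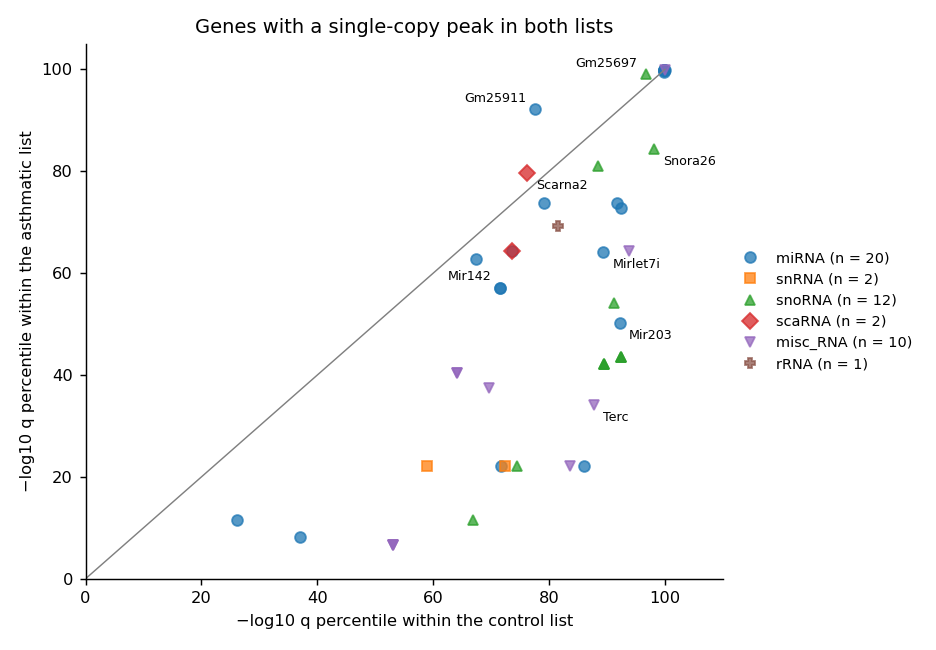
Percentile of −log10 q within the asthmatic list against that within the control list for the 47 small RNA genes with a single-copy peak in both lists, by gene type. The line marks equal percentiles; 44 of the 47 genes lie below it, and Gm25697, Gm25911 and Scarna2 lie above it.

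Some single-copy peaks near predicted miRNA and misc_RNA genes were among the highest of their lists. Gm27940 (chr1:195240910-195241007) had a peak 554 and 580 bp upstream with a −log10 q of 159 in the control list and 119 in the asthmatic list, and folds of 24.7 and 23.2. Gm23935 (chr16:11144125-11144181) had 137 and 93.9 with folds of 23.9 and 22.6, and Gm24270 (chr9:56223715-56223771) had 64.5 and 42.7. Peaks of 108 and 86.9, 1144 and 1071 bp wide, covered Gm25747, Gm24022 and Gm22175, 3 predicted miRNA names that lie 1915 to 2420 bp from the annotated start of Ighm (chr12:113424645-113425227). Ighm encodes the constant region of the IgM heavy chain. Gm25911 (chr1:167340369-167340424) ranked higher in the asthmatic list, with 12.3 (percentile 77.5) and 14.3 (percentile 92.2). These genes have no given name or known function. Of miRNA members, 906 carry a given Mir name, of which 23 had a control peak and 20 an asthmatic peak, 18 and 13 of them single-copy. Of the other 844, 35 and 39 had a peak, 11 and 8 of them single-copy.

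Among named miRNA genes with single-copy peaks, Mirlet7i, of the let-7 family that restrains growth genes, had a control peak over the hairpin with a −log10 q of 16.4 (percentile 89.4) and another upstream with 12.7. Its asthmatic peaks had 8.42 over the hairpin and 8.52 upstream. Mir142, a miRNA of blood cells, had 10.8 (percentile 71.6) and 7.74 (percentile 57.2), with widths of 680 and 678 bp. Mir193a had 10.8 and 5.17. Mir203 had a control peak of 17.9 and 2 asthmatic peaks that overlap it, of 5.02 and 7.12. Mir760 had a control peak at percentile 92.4 and asthmatic peaks of 7.02 and 9.58 on either side of the gene. By their highest peaks, each of these ranked higher in the control list, as most genes did. Mir148a had a control peak at percentile 11.4, 568 bp away, and none in the asthmatic list. The hairpins Mir9-1 and Mir3093 shared a control peak of 9.82, with none in the asthmatic list. Mir378a had a control peak of 11.2, 706 bp away, and none in the asthmatic list. Conversely, Mir7688 had an asthmatic peak of 8.65 (percentile 66.4) and none in the control list.

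The miRNA genes of lymphocytes were looked at with a wider reach, since their transcripts can start far from the hairpin. Of 52 genes listed, 1 (Mir146a) was not found by name, 7 had a coding start within 2000 bp and 44 were members. Within 1000 bp, 3 had a peak in each list, Mirlet7i, Mir142 and its antisense Mir142b. Within 20000 bp on the upstream side, including a peak that reaches over the 5′ end, 26 had a peak in the control list (59.1%) and 23 in the asthmatic list (52.3%), and 23 did in both. Over all 1750 miRNA members the shares were 30.3% and 30.1%, with 531 and 526 genes. Many of the 44 lie in clusters that share 1 upstream peak, so they are not independent.

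The oncomiR cluster of Mir17, Mir18, Mir19a, Mir20a, Mir19b-1 and Mir92-1, which promotes lymphocyte growth, had its upstream peak 1507 to 2263 bp away in the control list and 1554 to 2310 bp in the asthmatic list. That peak had a −log10 q of 11.6 (percentile 74.6) and 7.05 (percentile 49.7), and the nearest annotated start was that of Mir17hg, the host transcript. Mir155, which is induced on lymphocyte activation, had its nearest upstream peak 10496 and 10553 bp away, near the start of Mir155hg, with values of 14.5 (percentile 84.6, width 886 bp) and 5.86 (percentile 30.7, width 256 bp). Mir21a had one 2234 and 2258 bp away, with 6.49 and 3.25, in percentile 35.6 and 1.88.

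Most other clusters with an upstream peak within 20000 bp also ranked higher in the control list. For Mir15b and Mir16-2 the upstream peak, at the start of Smc4 in the control list, had 21.4 and 4.97 with widths of 1309 and 342 bp. For Mir15a and Mir16-1 it lay near the start of Dleu2, with 8.88 and 4.76. For Mirlet7a-1, Mirlet7f-1 and Mirlet7d it stood at percentiles 88.5 and 54.6. For Mir23a, Mir27a and Mir24-2, 7327 to 7624 bp away in the control list, it had 4.70 and 3.22. Mir22 ranked higher in the asthmatic list, with 7.41 (percentile 46.1) and 9.16 (percentile 70.5) at a peak 1751 and 1799 bp upstream. Beyond 20000 bp, Mir132, Mir212, Mir181a-1, Mir181b-1 and Mir34a ranked higher in the asthmatic list too, at distant upstream peaks mostly on copied sequence. Mir132 and Mir212 had percentiles of 37.8 and 93.7 at windows found 34 times, 84822 to 85228 bp away. Mir181a-1 and Mir181b-1 had 29.1 and 40.4, at least 208319 bp away, at windows found 4588 and 4904 times. Mir34a had 48.8 at a single-copy peak 37648 bp away and 98.8 at another, 21392 bp away, with a window found 16234 times. In contrast, Mir23b, Mir27b, Mir24-1, Mir26a-1, Mir29a, Mir29b-1, Mir29b-2, Mir29c, Mir30b, Mir30d and Mir140 ranked higher in the control list beyond that distance. Mir181a-2 and Mir181b-2 had their nearest upstream peaks 28373 and 29468 bp away in the control list and 208860 and 209955 bp away in the asthmatic list.

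The cluster of Mir106b, Mir93 and Mir25, inside Mcm7, accounted for the 3 genes with an upstream peak in the control list only. Its control peak, 5162 to 5576 bp upstream at a start of Mcm7, had a −log10 q of 6.34 (percentile 34.2), near the lower part of its list. In the asthmatic list the nearest upstream peak lay 28563 to 28977 bp away.

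**Figure D5:**
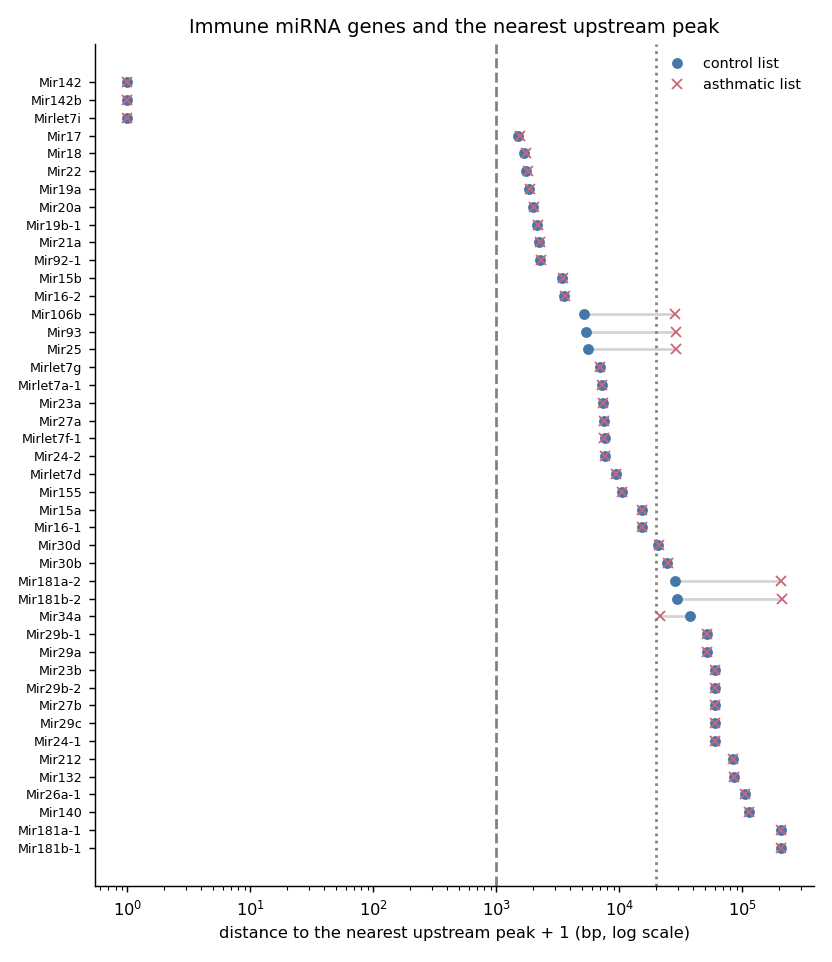
Distance from the 5′ end of 44 immune miRNA genes to the nearest peak on the upstream side, plus 1 bp on a log scale, in the control list (circles) and the asthmatic list (crosses). A distance of 0 means that the peak reaches over the 5′ end; the dashed line marks 1000 bp and the dotted line 20000 bp, and most genes have both marks at nearly the same distance, while Mir106b, Mir93, Mir25, Mir181a-2, Mir181b-2 and Mir34a have them apart.

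MicroRNAs of other cell types were listed as a check. Of 26 genes of epithelium, endothelium, fibroblasts, muscle, neurons and Hox clusters, 4 had a coding start within 2000 bp and 22 were members. Within 1000 bp, 1 (Mir9-1) had a peak in the control list and 0 in the asthmatic list. Within 20000 bp upstream, 7 had a peak in the control list (31.8%) and 0 in the asthmatic list, beside 30.3% and 30.1% of all miRNA members. The 7 comprised Mir200c and Mir141, whose peak lay at the start of Ptpn6, a gene of blood cells, and Mir199a-1, Mir449a, Mir124a-1, Mir9-1 and Mir9-2. The nearest upstream asthmatic peaks of 4 of them lay past that distance and were not the same peaks as in the control list. They stood at 22268 bp for Mir200c, 22673 bp for Mir141, 23729 bp for Mir199a-1 and 23803 bp for Mir449a. For Mir200c and Mir141 the asthmatic peak lay at the start of Grcc10, and for Mir199a-1 on a window found 157 times. The control peak of Mir449a lay on a window found 12325 times. Epcam, the epithelial marker, also had a start peak in the control list alone, and the share of other cells in the libraries was not tested.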

How the data were processed

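The members and gene lists were chosen with earlier results of these data known. H3K4me3 CATCH-seq was deposited as 1 peak list per library, called separately. Per the study's methods and the submitters' processing notes, reads were trimmed (Trim Galore, cutadapt), aligned to mm10 (Bowtie2), freed of duplicates and handled with SAMtools; deepTools made coverage tracks, not used here. The caller and threshold of the lists are not given in the sources used here, and the study's reporting summary says that peak calling was not performed for the ChIP-seq. How the deposited lists came about is therefore unknown. With no header in the files, the authors' columns were read by the usual narrowPeak order as a score, a ratio of the summit to the local background (fold), and the p-value and q-value as −log10; the lists hold no read counts, and the study states its sequencing depth only as a total, so the depth of each library is unknown. Peaks of all widths were used. Some sequences are not reported here.

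Members came from GENCODE vM21 on the 19 autosomes. Distances run from the nearest edge of a peak to the gene, and peaks sharing at least 1 bp overlapped. Shares have exact Clopper-Pearson 95% intervals. Copies of the 75 bases around a summit were counted on both strands. The counting was tested on simulated data. Families were assigned with BLAST 2.17.0 (E-value at most 1e-5) to the named snRNA and misc_RNA genes, and arrays are 10 or more genes of 1 type with gaps of at most 20000 bp. Tables were made in Python 3.11.15 with pandas 2.3.3 and numpy 2.4.6, intervals with scipy 1.17.1 and plots with matplotlib 3.10.9.

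Genes named are lymphocyte miRNAs, miRNAs of other cells, small RNA genes with a given name, cell markers, and in each list and gene type up to 5 members with the highest −log10 q. Other genes (the arrays, U1, U2 and U6 copies and further single-copy genes) were named after their values were seen. With 1 library per group, no test was made. Alternatives changed the distance, its reference points, the thresholds on peaks, the exclusion near starts, the copied summits and the overlap.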

Additional observations from a re-analysis of the deposited data

How the results depend on the processing

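No paired analysis was possible because each group held a single library. The depth of each library is unknown, so a missing peak does not show that the mark is absent. Of 74 alternatives, 42 left a share inside its 95% interval and 32 took it outside. The share of members with a peak was 3.02% in the control list and 2.57% in the asthmatic list within 500 bp, and 7.15% and 6.87% within 2000 bp. It was 1.16% and 0.884% with the 10000 peaks of highest −log10 p, 3.02% in the asthmatic list at a −log10 q of at least 5, 8.15% and 7.22% without the exclusion near coding starts, and 3.38% in the control list with an exclusion near any start. That last exclusion left 0% of scaRNA genes in both lists and 1.29% and 1.54% of misc_RNA genes. Single-copy summits gave 1.43% and 1.08% for all members, 1.66% and 1.20% for miRNA, 0.987% and 0.329% for snRNA, 1.15% in both lists for snoRNA and 0.651% and 0.326% for rRNA genes. Overlap of the peaks with the other list was 36.7% and 41.5% among the 10000 peaks, 48.4% and 48.7% when at least 50% of both peaks had to overlap, and 88.7% for single-copy asthmatic peaks. Chosen after seeing the data, leaving out the 5S array gave 1.56% for rRNA genes in both lists, and 3.51% and 3.61% for all members, which turns the order of the lists. Without the 5S and Snhg14 arrays the shares were 3.31% and 3.27%, which turns it back, and counting loci gave 3.69% and 3.53%. Without the Snhg14 arrays the asthmatic snoRNA share was 3.18%. The alternatives add or take away genes or peaks by construction, and no other cause was tested.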
